A study of Mus musculus with 8 samples.

Results

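The nuclear receptor superfamily of transcription factors was described in sorted precursors of the mouse ureteric bud, by 46 genes among the 34837 gene names on the array. Members were taken where a non-control probe carried the gene's name, and each gene was represented by its probe with the highest mean signal. Duct precursors were sorted as Hoxb7-GFP-positive cells from ICR embryos at E8.75 (1 array), E9.5 (2 arrays), E10.5 (2 arrays) and E11.5 (1 array of the ureteric bud). From E9.5 on these cells were also Flk1-negative, a selection that the label of the E8.75 array does not state. The E9.5 and E10.5 arrays were a rostral and a caudal part, and they were set against Wt1-GFP-positive intermediate mesoderm of E9.5, again as a rostral and a caudal part. The labels of the Wt1-GFP arrays state no Flk1 selection either, so the reporter comparison also differs in this. Hoxb7 and Wt1 are the genes that the reporters are named for, and a sort takes every cell in which its reporter is on. No 2 arrays were of the same kind of sample, and the labels do not say that arrays came from separate animals. Standard errors (SE) and p-values therefore rest on how far the gaps between rostral and caudal parts differed between the divided groups. They do not measure a spread between animals.

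Nuclear receptors are DNA-binding proteins, many of which are switched by a small lipid-soluble ligand such as a steroid, thyroid hormone, vitamin D or retinoic acid. Many bind as homodimers or as heterodimers with a retinoid X receptor, on paired copies of a short half-site, and recruit corepressors or coactivators. In the embryonic urinary tract, retinoic acid made by mesoderm next to the duct is known to act through retinoic acid receptors on the outgrowth of the bud.

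Of the 46 genes, 26 were well above background on all 8 arrays and 14 on 1 to 7 arrays. Of all 34837 gene names, 19845 were so on all 8 arrays, which is a similar share. The other 6 were not well above background on any array: the brain and retinal orphan receptors Nr2e1 and Nr2e3, Nr4a3, the adrenal and gonadal regulator Nr0b1, the thyroid hormone receptor Thrb and Hnf4g. These 6 were not tested, which left 40 members (86.96%), beside 84.05% of all gene names. Between 32 and 38 members were well above background on a duct array, and 31 and 32 on the Wt1-GFP arrays. In the duct series the count was 33 at E8.75, 34 and 33 at E9.5 (rostral, caudal), 38 and 32 at E10.5, and 32 at E11.5. Of all probes, 67.3% were well above background at E8.75, 67.1% and 67.2% at E9.5, 69.2% and 61.5% at E10.5, and 65.5% at E11.5. On the Wt1-GFP arrays these shares were 61.5% and 60.6%. The share of all probes was thus also highest on the rostral E10.5 array, and the counts are no separate result about the receptors.

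Levels are processed signals divided by the 75th percentile of their array, on a log2 scale, so that 0 marks that percentile. They follow 1 probe over the arrays and do not rank transcripts of different genes. Wt1 lay between -6.83 and -0.15 on the 6 duct arrays, against 4.14 and 4.09 on the Wt1-GFP arrays. Hoxb7 lay between 1.74 and 3.33 on the duct arrays, against 1.56 and 1.70. Kdr, which encodes Flk1, was 4.21 at E8.75 and 1.52 to 2.17 on the other 7 arrays. Endothelial markers summed to 51.7 times the 75th percentile at E8.75, against 6.55 to 10.9 elsewhere. On the E8.75 array 11 of 11 endoderm markers were well above background, against 3 to 6 elsewhere. Stromal markers summed to 77.8 and 43.5 on the Wt1-GFP arrays, against 1.77 to 10.98 on duct arrays. Neural markers summed to 148 on the rostral E9.5 duct array, against 31.4 to 53.2 elsewhere. The part of these cells in the results below was not tested, and in bulk samples fewer cells of a type cannot be told apart from less RNA per cell.

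**Figure D1:**
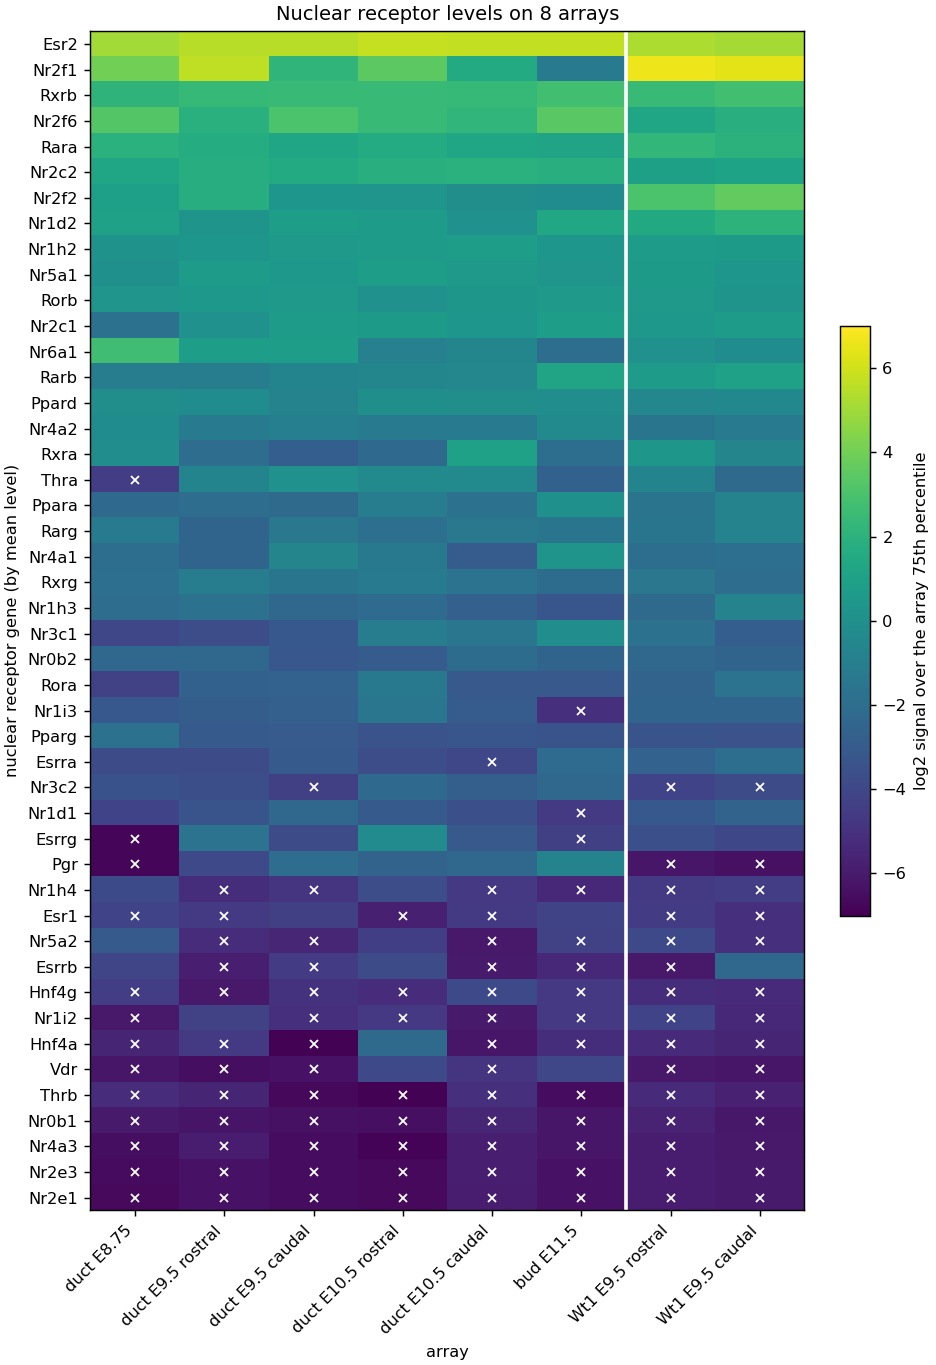
Level of each of the 46 nuclear receptor genes (rows, ordered by mean level of their probe) on each of the 8 arrays (columns), as log2 signal over the 75th percentile of the array. A white cross marks an array on which the probe was not well above background. The line separates the 6 duct arrays from the 2 Wt1-GFP arrays, and Nr2f1 has the widest range, 7.85 log2 units.

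Among the 26 genes measured on every array, 7 ranged by under 1 log2 unit, 7 by 1 to 2 units and 12 by more than 2 units. Their median range was 1.85, against 1.17 over all 19845 genes so measured. Of those, 38.95% ranged by under 1 unit and 17.46% by more than 2 units. Among the 26 receptors, the widest ranges belonged to the orphan receptors Nr2f1 (7.85) and Nr6a1 (4.65), the glucocorticoid receptor Nr3c1 (3.86), Nr2f2 (3.83) and the retinoid X receptor Rxra (3.79). The narrowest belonged to Rorb (0.46), Rxrb (0.68) and the liver X receptor Nr1h2 (0.69). The 6 probes with the highest mean level were those of Esr2, Nr2f1, Rxrb, Nr2f6, Rara and Nr2c2. The oestrogen receptor probe Esr2 stayed near constant, at 5.06 at E8.75, 5.48 and 5.47 at E9.5, 5.78 and 5.72 at E10.5, 5.72 at E11.5, and 5.29 and 5.11 in Wt1-GFP cells. Rxrb, a shared partner of other receptors, lay between 2.10 and 2.77 on the duct arrays and at 2.44 and 2.78 on the Wt1-GFP arrays. Nr2c2, an orphan receptor also called TR4, lay between 1.30 and 1.96 on the duct arrays, and at 0.96 and 1.13 on the Wt1-GFP arrays, below all 6. The steroidogenic factor Nr5a1, known from gonad and adrenal, ranged by 0.78 on a probe near the 75th percentile, between 0.03 and 0.81, and differed by 0.08 between the duct and Wt1-GFP cells of E9.5 (SE 0.20, adjusted p = 0.881). Esr2 and Nr5a1 had 1 probe each, so whether these near constant signals come from the named transcripts could not be checked on another probe.

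With 2 residual degrees of freedom, or 1 for the difference in position between reporters, limma called 0 of 29279 genes at an adjusted p of 0.05 in any of the 6 comparisons, while 1720 to 4690 genes had an unadjusted p below 0.05. The text therefore gives differences of at least 2-fold, that is 1 log2 unit, and says whether the arrays of both groups overlapped. In E9.5 duct cells 3 of 40 nuclear receptors were at least 2-fold higher than in Wt1-GFP cells (7.5%, against 9.42% of all genes) and 8 were at least 2-fold lower (20%, against 7.03%). Without overlap of arrays, 2 were higher (all genes 7.67%) and 7 lower (all genes 5.58%). The median difference was -0.19 for the receptors and -0.06 for all genes. With an unadjusted p below 0.05 there were 9 receptors (22.5%, against 13.6% of all genes): 2 were higher (5%, all genes 6.37%), Pgr and Nr6a1, and 7 lower (17.5%, all genes 7.22%), Rarb, Rara, Rarg, Nr2f1, Nr2f2, Esrra and Nr1d2. The E9.5 duct arrays lay in one row of the slide and the Wt1-GFP arrays in the other, so that no difference between these reporters could be taken within a row. With the row as a block in the fit, 24 receptors were past 2-fold, 6 higher and 18 lower. Of the divided samples, only the E10.5 duct had its rostral and caudal arrays in different rows. The block term therefore rested on the gap between these 2 arrays and is no separate measure of the row.

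**Figure D2:**
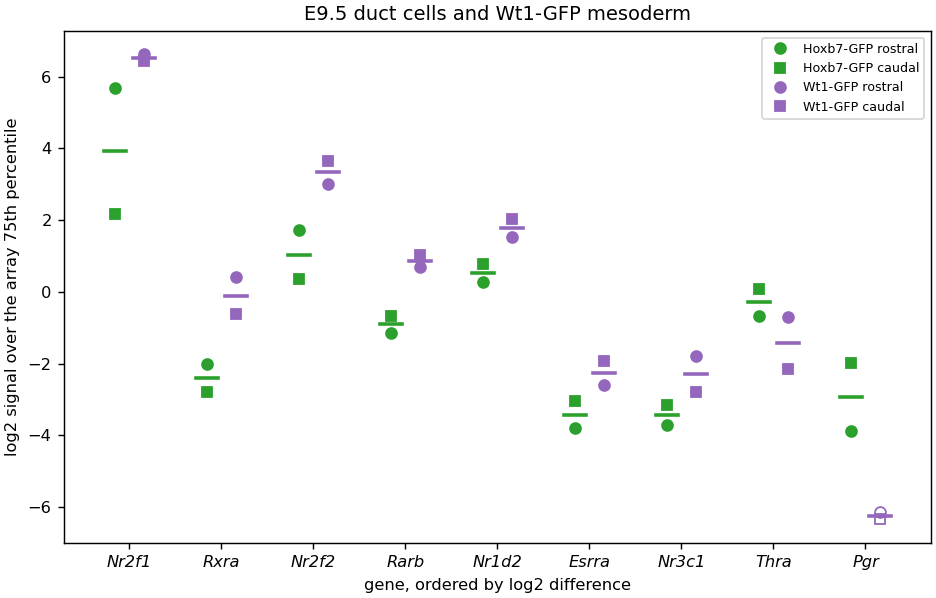
Levels at E9.5 of the 9 nuclear receptor genes that were at least 2-fold apart without overlap, in Hoxb7-GFP cells (green, left of each pair) and Wt1-GFP cells (purple), as log2 signal over the 75th percentile of the array. Circles are rostral and squares caudal arrays, open symbols are not well above background, and bars are means of 2 arrays. Nr2f1 to Nr3c1 lie lower in duct cells, and Thra and Pgr higher.

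Steps between stages shared arrays with each other and with the comparison of reporters, so their values stand side by side. At E9.5, 7 of 40 receptors were at least 2-fold higher than at E8.75 (17.5%, all genes 12.1%) and 6 lower (15%, all genes 11.4%). At E10.5, 6 were at least 2-fold higher than at E9.5 (15%, all genes 6.35%) and 2 lower (5%, all genes 6.31%). At E11.5, 8 were at least 2-fold higher than at E10.5 (20%, all genes 10.8%) and 9 lower (22.5%, all genes 10.7%). The median difference of the receptors was 0.14, 0.12 and -0.04 in these steps, and lay between -0.05 and -0.01 for all genes. By position, 5 receptors (Esrrg, Hnf4a, Nr1i2, Nr2f1 and Nr5a2) were at least 2-fold higher in the rostral than in the caudal part (12.5%, all genes 5.24%) and 0 lower (all genes 2.82%). With quantile normalization these counts were 4 and 1. Hnf4a and Nr1i2 were well above background on 1 array each, a rostral one, so the filter that admitted them favoured this direction. With values floored at each array's dimmest well-above level, their differences were 0.78 and -0.045. Nr5a2 was well above background on 1 rostral and 0 caudal arrays. The rostral excess differed by at least 2-fold between duct and Wt1-GFP cells for 13 receptors, 8 with a larger rostral excess in duct cells (20%, all genes 10.1%) and 5 with a smaller one (12.5%, all genes 13.3%). The rostral and caudal E10.5 arrays lay in different rows of the slide, so gaps between them cannot be told apart from the row. The bud shared its row with the caudal E10.5 array only.

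**Figure D3:**
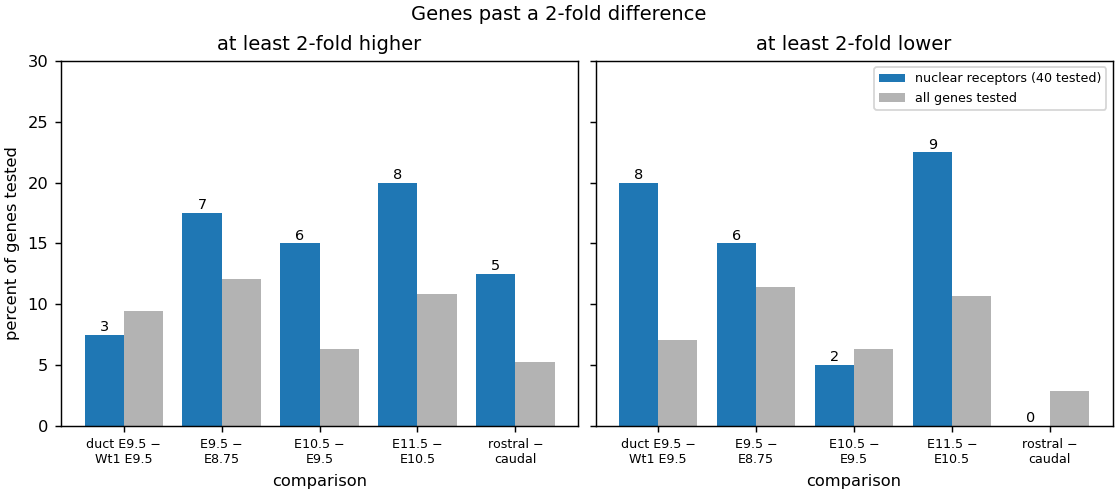
Percent of the 40 tested nuclear receptors (blue) and of all 29279 genes tested (grey) that were at least 2-fold higher (left) or lower (right) in each comparison, with the number of receptors above the bars. The first group of each comparison is named first on the axis, and the receptors' share is furthest above that of all genes among the lower genes of duct E9.5 against Wt1-GFP E9.5 cells (8 receptors, 20% against 7.03%).

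All 3 retinoic acid receptors had a lower mean in E9.5 duct cells than in Wt1-GFP cells, and 0 of them passed the adjusted threshold. Rarb, a receptor gene that is itself a known target of retinoic acid, was -1.15 and -0.66 on the E9.5 duct arrays (rostral, caudal), against 0.68 and 1.02 on the Wt1-GFP arrays. The groups did not overlap, the difference was -1.75 (SE 0.22), or 3.38-fold lower, and its adjusted p of 0.209 was the lowest among the receptors. With an intensity trend in the variance the adjusted p of Rarb was 0.0376, and with normexp background 0.0457. Rarb was then the only one of the 40 receptors past 0.05 under each of these settings (2.5%, all genes 2.36% and 0.625%). Over the stages Rarb was -1.11 at E8.75, -0.60 and -0.51 at E10.5 and 1.15 at E11.5, which made the bud 3.26-fold higher than the E10.5 duct (log2 difference 1.70, SE 0.27, adjusted p = 0.288). The probe used lies at chr14:17263367-17263426 of mm9. A probe of the same transcript was also lower in duct cells, by 1.39, but was 0.55 lower in the bud than at E10.5. A further Rarb probe, at chr14:17651424-17651483, was 0.65 higher in duct cells, so the size and direction hold for the probe used.

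Rara, the widely expressed retinoic acid receptor, was 1.67 and 1.30 on the E9.5 duct arrays and 2.26 and 2.01 on the Wt1-GFP arrays, without overlap (difference -0.65, SE 0.20, adjusted p = 0.343). Across the duct stages it went no further than 1.19 to 1.92. Rarg lay at -2.48 and -1.40 on the E9.5 duct arrays, against -1.57 and -0.74, with overlap (difference -0.78, SE 0.25, adjusted p = 0.354). Rxra, a heterodimer partner, was -2.01 and -2.80 on the E9.5 duct arrays, against 0.41 and -0.62 on the Wt1-GFP arrays (difference -2.30, SE 1.25, adjusted p = 0.469). Rxra was -0.15 at E8.75, -2.19 and 0.99 at E10.5 and -1.95 at E11.5, so that its E10.5 arrays lay 3.18 apart. The sign of its reporter difference turned, to 1.79, with the slide row as a block, a term that rested on the E10.5 pair. The other Rxra probe differed by 0.09.

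The 250 bases upstream of the RefSeq start (GRCm38.p6) were searched on both strands for the half-site AGGTCA, its variant AGTTCA, the variant GGGTCA and the variant GGTTCA, and for direct repeats of any pair of them 1 to 5 bases apart. The window of Rarb, at chr14:16575477-16575726 on the minus strand, is shown because it was the only one of 63 windows of 42 matched members with such a repeat, while 0.524% of 32851 windows of all genes held one. Half-sites are in capitals, and the last pair, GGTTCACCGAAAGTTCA, is spaced by 5 bases and lies 53 to 37 bases upstream of the start.
Rarb: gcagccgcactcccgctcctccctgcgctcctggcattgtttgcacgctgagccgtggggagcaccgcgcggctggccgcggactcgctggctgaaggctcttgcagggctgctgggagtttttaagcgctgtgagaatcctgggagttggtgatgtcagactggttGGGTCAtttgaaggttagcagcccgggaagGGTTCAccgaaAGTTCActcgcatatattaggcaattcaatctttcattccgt
Single half-sites were found in 38.1% of the members' windows and in 38.6% of all windows. The match is a description of letters and says nothing of binding in these cells.

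Genes that make, break down or bind retinoic acid were measured for 13 of 13 listed names. In the reporter comparison 4 were at least 2-fold higher in duct cells and 3 lower (all genes 9.42% and 7.03%). The probes of the binding proteins Crabp1 and Crabp2 were among the brightest. Crabp1 was 6.69 and 3.96 in the E9.5 duct and 4.47 and 5.03 in Wt1-GFP cells, which overlap, and -4.20 in the bud. Crabp2 differed by 0.07 between duct and Wt1-GFP cells.

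Among the chicken ovalbumin upstream promoter transcription factors, orphan receptors that often repress transcription, Nr2f1 and Nr2f2 both had lower levels in duct cells than in Wt1-GFP cells, without passing the adjusted threshold. Nr2f1 was 5.68 and 2.17 on the E9.5 duct arrays (rostral, caudal), against 6.62 and 6.43 on the Wt1-GFP arrays. All duct arrays lay below the Wt1-GFP arrays, and the E9.5 difference was -2.60 (SE 0.89, 6.07-fold lower, adjusted p = 0.366). It was -3.82 without the rostral and -1.38 without the caudal duct array, and -3.87 without the rostral and -1.33 without the caudal Wt1-GFP array. In the duct series Nr2f1 was 4.03 at E8.75, 3.48 and 1.53 at E10.5 and -1.23 at E11.5, 13.3-fold lower in the bud than in the E10.5 duct (log2 difference -3.74, SE 1.09, adjusted p = 0.370). The rostral duct exceeded the caudal duct by 3.51 at E9.5 and by 1.95 at E10.5 (arrays in different slide rows), while the Wt1-GFP parts differed by 0.19. The difference between duct and Wt1-GFP cells in this rostral excess was 2.54 (SE 0.91, adjusted p = 0.876), with 1 residual degree of freedom. The other Nr2f1 probe gave a reporter difference of -2.32 and a bud difference of -5.14. Neural markers were highest on the rostral E9.5 array, where heart markers also summed to 8.51 against 0.85 on the caudal one.

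Nr2f2, known in mesenchyme and venous endothelium, was 1.73 and 0.34 on the E9.5 duct arrays, against 3.02 and 3.66 on the Wt1-GFP arrays. The groups did not overlap (difference -2.30, SE 0.56, 4.93-fold lower, adjusted p = 0.317), and the slide row block left it at -2.32. It was 0.88 at E8.75, 0.29 and -0.10 at E10.5 and -0.18 at E11.5, so that all 6 duct arrays lay below the Wt1-GFP arrays. Stromal markers were also higher on the Wt1-GFP arrays. The upstream windows of both genes are shown because these were the largest differences towards lower duct levels at E9.5 among members with 1 probe or with probes that gave the same sign. Where a gene has several starts, the one furthest upstream was taken. Neither window held a half-site, so there are no capitals. That of Nr2f1 lies at chr13:78198874-78199123 and that of Nr2f2 at chr7:70366747-70366996, both on the minus strand, with a GC content of 72% and 50%.
Nr2f1: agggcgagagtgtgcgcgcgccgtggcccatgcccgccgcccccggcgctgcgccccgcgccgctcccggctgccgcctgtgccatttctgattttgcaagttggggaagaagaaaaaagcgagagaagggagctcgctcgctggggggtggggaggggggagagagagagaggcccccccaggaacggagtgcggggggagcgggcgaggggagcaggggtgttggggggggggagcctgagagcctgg
Nr2f2: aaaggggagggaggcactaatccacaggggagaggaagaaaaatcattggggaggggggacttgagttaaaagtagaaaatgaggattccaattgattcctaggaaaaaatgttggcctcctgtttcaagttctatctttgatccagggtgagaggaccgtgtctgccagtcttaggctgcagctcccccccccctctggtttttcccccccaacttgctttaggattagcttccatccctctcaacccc

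Nr2f6, another member of that group, went the other way: 1.91 and 3.05 on the E9.5 duct arrays, against 1.28 and 1.77 on the Wt1-GFP arrays (difference 0.95, SE 0.41, adjusted p = 0.409). It was 3.27 at E8.75, 2.47 and 2.22 at E10.5 and 3.42 in the bud, 2.11-fold above E10.5 (adjusted p = 0.461). The testicular orphan receptor Nr2c1 was 0.06 and 0.72 at E9.5, against -1.78 at E8.75, the lowest of the 8 arrays on this probe (4.49-fold higher at E9.5, adjusted p = 0.230). Its other probe, well above background on all 8 arrays, differed by 0.12, and the mean of both probes by 1.14.

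**Figure D4:**
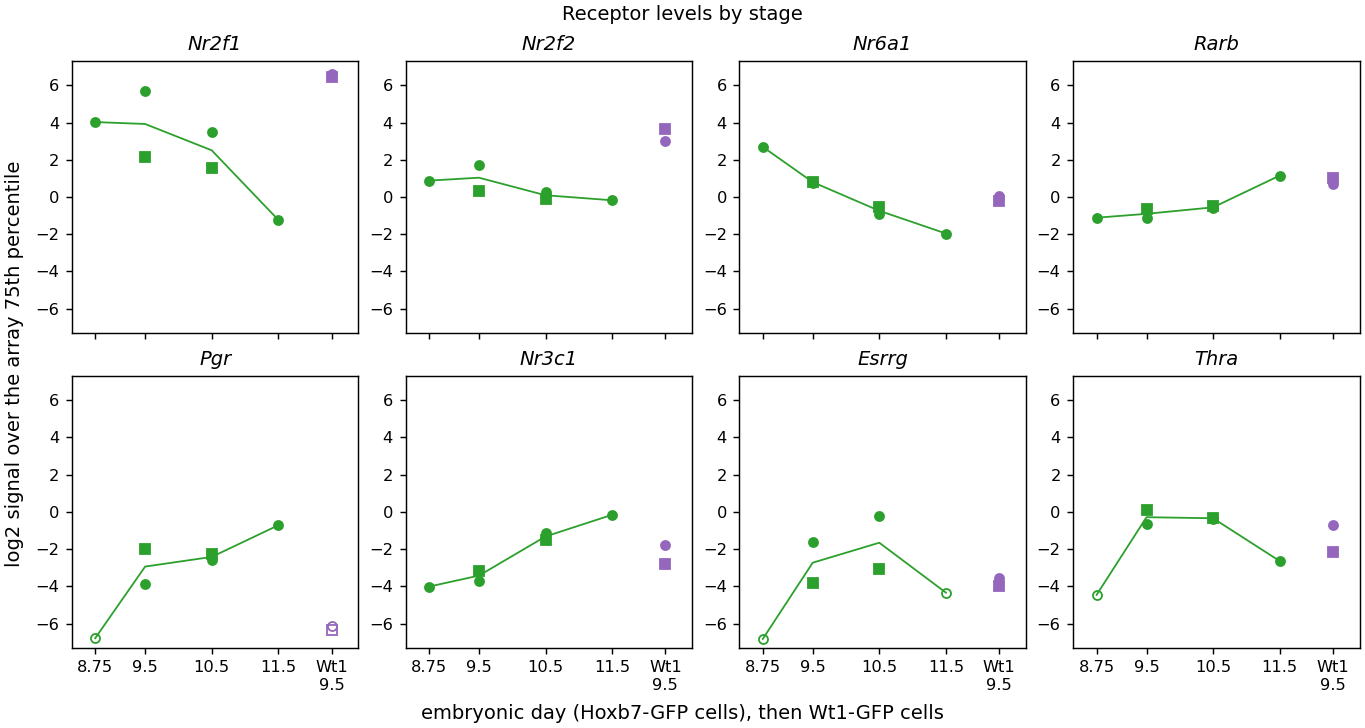
Levels of 8 nuclear receptor genes in Hoxb7-GFP cells by embryonic day (green, the line joins stage means) and in Wt1-GFP cells of E9.5 (purple, at the right), as log2 signal over the 75th percentile of the array. Circles are rostral or undivided samples, squares are caudal, and open symbols are not well above background. Nr6a1 lies lower at each later stage, from 2.69 at E8.75 to -1.96 at E11.5, and Nr3c1 lies higher, from -4.02 to -0.16.

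The germ cell nuclear factor Nr6a1, which represses pluripotency genes in the early embryo, was lower at each later stage. It was 2.69 at E8.75, 0.77 and 0.83 at E9.5, -0.93 and -0.55 at E10.5 and -1.96 at E11.5. No stage overlapped the next, and the steps were -1.89 (SE 0.32, adjusted p = 0.225), -1.54 (SE 0.26, adjusted p = 0.537) and -1.22 (SE 0.32, adjusted p = 0.350). The Wt1-GFP arrays, at 0.08 and -0.21, lay below the E9.5 duct arrays (difference 0.87). Nr5a2, an early embryo and endoderm factor, was -3.04 and well above background at E8.75 but not on either E9.5 array (-5.20 and -5.51), at least 2.73-fold lower at E9.5 (adjusted p = 0.243). The fat and placenta receptor Pparg was -3.04 and -2.95 at E9.5, against -1.77 at E8.75 (difference -1.23, SE 0.25, adjusted p = 0.238), and lay between -3.44 and -2.95 on all later and Wt1-GFP arrays. The bile acid receptor Nr1h4 was -5.15 and -4.90 at E9.5, against -3.86 at E8.75 (at least 1.55-fold lower), and the oestrogen-related receptor Esrrb -5.81 and -4.56, against -4.07 (at least 1.30-fold lower). Both were well above background at E8.75 and on neither E9.5 array. The E8.75 array carried the higher endothelial and endoderm markers named above. Among 8 tested target genes of HNF4, 5 were at least 2-fold lower at E9.5 than at E8.75 (all genes 11.4%), for example Apoc2, an apolipoprotein, at -2.19 and -2.40 against 2.35 (difference -4.65, adjusted p = 0.195). This list shares Apoa1, Apob and Ttr with the endoderm markers, so the 2 lists are not separate. Hnf4a was not well above background at E8.75 or E9.5, nor Hnf4g on any array.

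Pgr, Nr3c1 and Nr3c2 had higher levels on all E10.5 and E11.5 arrays than on the only E8.75 array, without passing the adjusted threshold. This was not particular to them, since other members, among them Rarb, Rora, Nr2c1 and Esr2, also did so. The share of all genes that did so was not counted. The progesterone receptor Pgr was -3.89 and -1.99 on the E9.5 duct arrays, against -6.14 and -6.35 on the Wt1-GFP arrays, where it was not well above background. The groups did not overlap, and Pgr was at least 2.11-fold higher in duct cells (log2 difference 3.30, SE 0.61, adjusted p = 0.258). It was -6.79 and not well above background at E8.75, -2.57 and -2.28 at E10.5 and -0.72 in the bud. That made E9.5 at least 3.06-fold higher than E8.75 (adjusted p = 0.237), and the bud 3.25-fold higher than E10.5 (adjusted p = 0.443). All 3 Pgr probes were higher in duct than in Wt1-GFP cells, by 3.30, 3.10 and 2.53, and with normexp background, which lifts dim signals, the difference was 0.64. The upstream window of Pgr, at chr9:8899583-8899832 on the plus strand (GC content 43.6%), is shown because this was the largest higher difference in duct cells; it held no half-site.
Pgr: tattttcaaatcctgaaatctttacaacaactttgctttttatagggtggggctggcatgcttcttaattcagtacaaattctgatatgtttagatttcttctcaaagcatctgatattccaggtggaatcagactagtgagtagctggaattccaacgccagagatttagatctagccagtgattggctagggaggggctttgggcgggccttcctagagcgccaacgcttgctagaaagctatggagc

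The glucocorticoid receptor Nr3c1 was -3.70 and -3.15 on the E9.5 duct arrays, against -1.80 and -2.80 on the Wt1-GFP arrays (difference -1.13, SE 0.45, adjusted p = 0.392). In the duct it was -4.02 at E8.75, -1.14 and -1.51 at E10.5 and -0.16 at E11.5. E10.5 was 4.29-fold higher than E9.5 (log2 difference 2.10, SE 0.45, adjusted p = 0.575) and E11.5 2.24-fold higher than E10.5 (adjusted p = 0.467), without overlap. A dimmer probe of Nr3c1, well above background on 2 arrays, was 0.30 higher in duct than in Wt1-GFP cells. The mineralocorticoid receptor Nr3c2 was -2.22 and -2.74 at E10.5, against -3.61 and -4.32 at E9.5 (2.80-fold higher, with 1 of 2 E9.5 arrays well above background, adjusted p = 0.612), and it was not well above background on either Wt1-GFP array. Of 10 glucocorticoid response genes, 2 were at least 2-fold higher and 2 lower at E10.5 than at E9.5 (all genes 6.35% and 6.31%). Their median difference in that step was 0.04, against -0.01 over all genes. In the bud against E10.5, 4 were at least 2-fold higher and 0 lower (all genes 10.8% and 10.7%). The median difference was then 0.87, against -0.02 over all genes. The brightest gene of this list by probe, the leucine zipper gene Tsc22d3, was 3.57 in the bud, against 2.74 and 2.48 at E10.5. Of 11 chaperones of steroid receptors 0 differed by 2-fold between E9.5 duct and Wt1-GFP cells (all genes 9.42% higher and 7.03% lower). In a list this short, 0 lies near those shares. By sign, 2 were higher and 9 lower in duct cells, with a median difference of -0.24 against -0.06 over all genes.

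Oestrogen-related receptors are orphan receptors known for mitochondrial and metabolic genes. Esrra was -3.81 and -3.04 on the E9.5 duct arrays, against -2.61 and -1.94 on the Wt1-GFP arrays (log2 difference -1.15, SE 0.37, adjusted p = 0.354), and -2.10 in the bud, against -3.70 and -4.00 at E10.5 (3.36-fold higher, with 1 of 2 E10.5 arrays well above background, adjusted p = 0.348). Esrrg was -6.83 and not well above background at E8.75, -1.64 and -3.83 at E9.5, -0.23 and -3.10 at E10.5, and -4.34 and not well above background in the bud, while the Wt1-GFP arrays lay at -3.58 and -3.97. It was at least 3.53-fold higher at E9.5 than at E8.75 (adjusted p = 0.239) and at least 6.31-fold lower in the bud than at E10.5 (adjusted p = 0.385). The rostral arrays of the duct exceeded the caudal ones by 2.19 at E9.5 and 2.87 at E10.5 (arrays in different slide rows), and the Wt1-GFP ones by 0.39 (difference of the excess 2.14, SE 0.56, adjusted p = 0.827). Its second, nearby probe was well above background on 2 arrays and lay highest on the same 2 rostral duct arrays. The probe used for the oestrogen receptor Esr1 was well above background on 2 arrays and was -4.13 in the bud, against -5.75 and -4.63 at E10.5 (log2 difference 1.06, SE 0.60). A further Esr1 probe was well above background on 2 arrays and differed by -0.18 in this step.

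The thyroid hormone receptor Thra was -0.66 and 0.09 at E9.5, against -4.46 at E8.75, where this probe was not well above background (log2 difference 4.17, SE 0.76, adjusted p = 0.234). It was -0.37 and -0.32 at E10.5 and -2.64 in the bud, 4.92-fold lower (adjusted p = 0.388), and the E9.5 duct arrays lay above the Wt1-GFP arrays of -0.71 and -2.16 by 1.15 (adjusted p = 0.468). The other Thra probe was well above background on all 8 arrays, at -2.81 at E8.75. It put the bud highest, at 0.24, and differed by 0.40 between E9.5 and E8.75, so the courses of the 2 probes did not run together. The vitamin D receptor Vdr was well above background only on the rostral E10.5 array (-3.93) and in the bud (-4.03), against -6.48 and -6.33 at E9.5, with the caudal E10.5 array at -4.87 (E10.5 at least 1.07-fold higher than E9.5, adjusted p = 0.540). Of 5 genes that handle vitamin D, 1 was at least 2-fold higher and 0 lower at E10.5 than at E9.5 (all genes 6.35% and 6.31%). At E9.5 against E8.75 these counts were 1 and 1 (all genes 12.1% and 11.4%), with Vdr well above background at neither stage.

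Among receptors of metabolism, the constitutive androstane receptor Nr1i3 was -5.14 and not well above background in the bud, against -1.49 and -2.91 at E10.5 (log2 difference -2.94, SE 0.60, adjusted p = 0.308). A second Nr1i3 probe was well above background on all 8 arrays and differed by -0.80 in this step, so the size holds for the probe used. The fatty acid receptor Ppara was 0.03 in the bud, against -1.04 and -1.80 at E10.5 (2.73-fold higher, adjusted p = 0.426), while another Ppara probe, well above background on all 8 arrays, differed by 0.14. Ppard ranged by 0.71 over all arrays. Of 9 genes of the fatty acid response 0 were at least 2-fold higher and 2 lower in the bud than at E10.5 (all genes 10.8% and 10.7%). Nr1h3, a sterol sensor, was -1.75 and -2.30 on the E9.5 duct arrays (rostral, caudal) and -2.14 and -0.73 on the Wt1-GFP arrays, so that rostral lay above caudal by 0.55 in the duct and below it by 1.41 in Wt1-GFP cells (adjusted p of the difference = 0.814). Hnf4a, the liver and kidney factor, was well above background on 1 array, the rostral E10.5 duct, at -2.16 against -6.17 on the caudal one, which lay in the other slide row. Its other rostral arrays were -4.64 (duct E9.5) and -5.28 (Wt1-GFP), against caudal arrays of -6.94 and -5.56. The xenobiotic receptor Nr1i2 was well above background on the rostral E9.5 duct array alone, at -4.26. It was -4.26, -4.69 and -4.18 on the rostral arrays of duct E9.5, duct E10.5 and Wt1-GFP cells, against -5.11, -5.98 and -5.46 on the caudal ones, and -6.03 at E8.75.

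Among receptors of the circadian clock, the REV-ERB gene Nr1d1, which represses clock genes, was -3.39 and -2.33 at E9.5, against -4.16 at E8.75 (2.46-fold higher, adjusted p = 0.373). In the bud it was -4.61 and not well above background, against -3.03 and -3.57 at E10.5 (at least 2.03-fold lower, adjusted p = 0.445). The Nr1d2 probe lay at 0.27 and 0.78 on the E9.5 duct arrays, against 1.53 and 2.04 on the Wt1-GFP arrays (2.39-fold lower, adjusted p = 0.348). This was the 1 of 46 probes whose given position, on chromosome 19, was not on the chromosome of its gene (14), and the other Nr1d2 probe differed by -0.80. Rora, an activator of the same clock genes, was -2.68 and -2.58 at E9.5, against -4.27 at E8.75 (3.12-fold higher, adjusted p = 0.438). A dimmer Rora probe, well above background on 2 arrays, differed by 0.24 in this step, and Rorb ranged by 0.46. Of 13 tested clock genes 5 were at least 2-fold higher at E9.5 than at E8.75 and 1 lower (all genes 12.1% and 11.4%).

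The orphan receptor Nr4a1, an immediate early gene, was 0.23 in the bud, against -1.35 and -2.93 at E10.5 (5.17-fold higher, adjusted p = 0.466), and -2.48 and -0.62 at E9.5. The log2 difference of 2.37 between the bud and E10.5 was 3.63 without the rostral E10.5 array and 1.11 without the caudal one. Of 9 immediate early genes 5 were at least 2-fold higher in the bud than at E10.5 and 0 lower (all genes 10.8% and 10.7%), for example Fos, at 3.42 against 3.08 and -0.15. Nr4a2 ranged by 1.40, and the orphan receptor Nr0b2, which lacks a DNA-binding domain, by 1.12. Of the 24 corepressors and coactivators that receptors recruit, 0 were at least 2-fold higher in E9.5 duct cells than in Wt1-GFP cells and 2 lower (all genes 9.42% and 7.03%), with a median difference of -0.30 against -0.06 over all genes. The 2 brightest probes, those of Crebbp and Med1, differed by 0.04 and -0.11.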

How the data were processed

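Mouse cells were sorted by flow cytometry and 10 ng of total RNA per sample was amplified and labelled with Cy3, per the labels' protocols. The 8 arrays lay on 1 slide, 4 in each of 2 rows. Each deposited intensity is, per the file headers, a processed signal, after background subtraction, that the Agilent Feature Extraction software (version 10.7.3.1) wrote. The deposited matrix holds log2 values whose scale was not given in the sources used here. They followed the log2 processed signal relative to the 75th percentile (lowest r 0.99997), centred on each probe's median, and served as an alternative. Between 60.6% and 69.2% of probes per array were well above background, 0 spots were saturated, and the number of arrays limits the precision.

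Control and outlier spots were left out and spots of a probe averaged (55663 probes). The fit used limma 3.58.1 under R 4.3.3 and version 1.17.8 of data.table, with 5 group terms and a position term (0.5 rostral, -0.5 caudal, 0 undivided), over probes well above background on at least 1 array. A stage of 1 array took its spread from the other groups. The fit was tested on simulated data. p-values were adjusted by Benjamini-Hochberg over all 29279 genes. Folds are the fitted log2 differences on the linear scale. Where no array of the dimmer group was well above background, and no other probe of the gene was there, the fold is a lower bound ("at least"), with each such array at the higher of its dimmest well-above level and the probe's own. Members, gene lists and tests were chosen with earlier results of these data known. Members at least 1 log2 unit apart without overlap were given with the values of that comparison's arrays (for position by reporter, of some members only), and the 6 with the highest mean with all arrays or their range, and lists were named by their 3 brightest probes. Marker lists (13) covered other cell types. Values of other members were chosen after they were seen. Alternatives were normexp background (offset 50), quantile normalization, an intensity trend, other filters, the mean of probes, floored values, the slide row as a block, no position term, the deposited matrix, and leaving out each array.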

Additional observations from a re-analysis of the deposited data

How the results depend on the processing

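Of 935 alternative values for 56 named differences, 928 kept direction and side of the adjusted p threshold, 2 passed it (Rarb, above) and 5 reversed. No main value passed this threshold, so keeping its side was nearly fixed beforehand and is no measure of robustness. A difference between groups also could not move when an array of another group was left out. Kept values could still fall below 2-fold, and the receptors that stayed past it are counted below. For example, Thra in the bud went from -2.30 to -0.095 with the mean of all probes. Pgr between reporters went from 3.30 to 0.64 with normexp background. The reversed values were Rxra between reporters with the slide row block (1.79), Esr1 in the bud with normexp background (-0.0032), Nr1i2 by position with floored values (-0.045), and, with the mean of all probes, the position by reporter differences of Ppara (-0.25) and Nr3c1 (0.61). Genes past adjusted p 0.05 numbered 692 between reporters, 471 at E9.5 against E8.75 and 1 for position by reporter with the intensity trend, 183 and 99 in the first 2 of these with normexp background, and 8 and 28 without the position term. Receptors at least 2-fold apart, in the order reporters, E9.5, E10.5, E11.5, position and position by reporter, numbered 11 (3 higher, 8 lower), 13, 8, 17, 5 and 13, and with normexp background 5 (0 higher, 5 lower), 4, 3, 10, 1 and 7. With the slide row block, a term that rested on the E10.5 pair, they numbered 24 between reporters and 13 at E10.5. By position they numbered 3 with a filter of 2 arrays and 2 with floored values. Leaving out 1 array gave 9 to 14 receptors between reporters, 13 to 15 at E9.5, 8 to 13 at E10.5 (13 without the caudal E10.5 array), 16 to 17 at E11.5, 5 to 6 by position and 12 to 17 for position by reporter. In all of these fits that left a test, 0 genes passed the threshold; for position by reporter these were 2 of 6 fits. Between reporters, the log2 difference then ranged from -3.42 to -1.19 for Rxra, 0.22 to 2.07 for Thra and -1.75 to -0.51 for Nr3c1. The cause of these shifts was not tested. No paired analysis was possible because the labels carry no replicate numbers; the parts were matched by the position term. Of 21 tested members with another measured probe, 9 had the same sign of the reporter difference on both.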
